A study of Drosophila melanogaster with 3 samples.

Results

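The genes described here encode the translation initiation factors (eIF) and elongation factors (eEF) of Drosophila melanogaster. They were taken by symbol: every protein-coding gene of the Ensembl BDGP6 annotation on chromosomes 2, 3, 4 and X whose symbol starts with eIF or eEF, 52 of 13945 genes. By complex, 3 encode eIF2 subunits, 5 the eIF2B exchange factor, 16 eIF3, 13 eIF4 proteins, 5 eEF1 and 10 other factors. Of the 52, 7 are called testis paralogs here, from background knowledge of their expression and not from these data, and the other 45 general. The class of eIF4E4 and eIF4E6, counted as general, is uncertain.

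Binding was read from peak lists of a chromatin immunoprecipitation and sequencing (ChIP-seq) experiment on CrebB, the fly homologue of the basic leucine zipper transcription factor CREB. All samples came from a transgenic line stably expressing CrebB with GFP fused to its C terminus, as whole embryos of 0 to 24 hours with both sexes pooled. There was 1 group, CrebB ChIP, with 3 biological replicates, and no second condition, so genes are compared with genes and replicates with each other. One description field calls the libraries input controls, whereas the antibody and source labels name CrebB. Each replicate list and the pooled list held 30000 peaks, and the authors' optimal list, kept under their reproducibility threshold, held 3915. These are the 3915 pooled peaks of highest signal, so a listed peak need not rank high in every replicate. The lists carry no read numbers, and the depth behind each peak is therefore unknown. Signal values are the peak caller's own, without a stated scale, and ranks are by signal within a list, with rank 1 the strongest.

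Initiation factors bring the small ribosomal subunit, the initiator tRNA and the capped mRNA together. eIF2 carries the initiator tRNA as a GTP-bound complex and is recharged by eIF2B. eIF3 is a scaffold on the small subunit, and the eIF4 proteins recognise the cap and unwind the mRNA. eEF1 delivers aminoacyl-tRNA and eEF2 moves the ribosome along. Drosophila carries extra copies of several of these genes, some of which are expressed mainly in the male germline.

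Promoters of these genes carried an optimal CrebB peak more often than promoters in general. A promoter peak is one whose summit lay within 500 bp of an annotated transcription start site (TSS) of the gene. Optimal promoter peaks were found at 17 of the 52 genes (32.7%, Wilson 95% interval 21.5% to 46.2%), against 2604 of all 13945 genes (18.7%). Among the 3915 highest-signal peaks of each replicate, a promoter peak was found at 19 of 52 (36.5%) in replicate 1, 16 of 52 (30.8%) in replicate 2 and 20 of 52 (38.5%) in replicate 3, against 18.3%, 18.1% and 19.3% of all genes. The mean was 18.3 ± 2.08 of the 52 genes (SD, n = 3 replicates). All 3 replicates lay above the share of all genes in the same list. No test was made on this chosen list, and the interval covers the counting of genes only.

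The number of annotated start sites moves with this share. Of the members with 1 TSS, 7 of 32 (21.9%) had an optimal promoter peak, against 13.9% of all genes with 1 TSS. Of the members with 2 or more, 10 of 20 (50%) had one, against 31.9% of such genes. Within either class the members stood above all genes, and the part of start site number in the difference was not tested.

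The peaks were unevenly spread over the complexes. Of the 10 other factors, 7 had an optimal promoter peak (70%, Wilson 95% interval 39.7% to 89.2%): eIF6, eIF1, eEF2, eIF2A, eEF5, eIF2D and eIF5B. The eIF2 trimer had 2 of 3 and eEF1 had 2 of 5 (40%). eIF3 had 3 of 16 (18.8%), close to the 18.7% of all genes, and eIF4 had 3 of 13 (23.1%). The eIF2B exchange factor had none of 5, with a Wilson upper bound of 43.4%. The intervals of all 6 groups overlap one another, and no difference between complexes was tested.

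**Figure D1:**
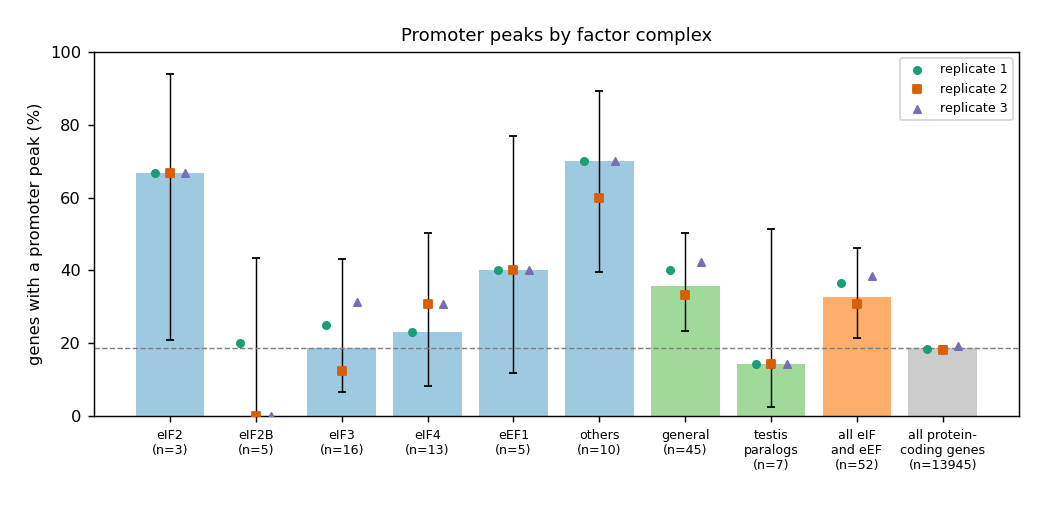
Bars give the share of genes with an optimal promoter peak, in percent, for each complex, for general genes and testis paralogs, for all 52 eIF and eEF genes and for all protein-coding genes, with Wilson 95% intervals as error bars. Points give the same share among the 3915 highest-signal peaks of each replicate, and the dashed line marks the 18.7% of all genes: the 10 other factors stand at 70% and eIF2B at 0.

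Requiring support in every replicate kept 13 of the 17, or 8 where each replicate list was read to its first 1957 peaks. For the 13, support meant a summit within 100 bp among the 3915 highest-signal peaks of a replicate. These 13 genes are 25% of the 52, against 9.67% of all genes with such a supported peak. The 4 that lacked full support were eIF3h, eIF3f1, eIF4A and eIF5B.

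Where peaks were present they lay close to the start site. The median distance of the best optimal summit from the TSS was 37 bp in the 17 genes, against 118 bp in the 2604 bound genes. The summit lay within 100 bp of the TSS in 13 of 17 (76.5%), against 43.5% of the bound genes. It lay upstream of the nearest TSS of the gene in 11 of 17 (64.7%), against 76.7%. Of these 11, the summits at eEF2, eIF2A and eIF5B were within a 5′ UTR of the gene. The median rank of the best peak was 1270 in the optimal list, against 1866 for all bound genes. That peak was also within 500 bp of another gene's TSS in 6 of the 17 (35.3%), against 49.5%. The part of shared peaks and of start site number in these distances was not tested.

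**Figure D2:**
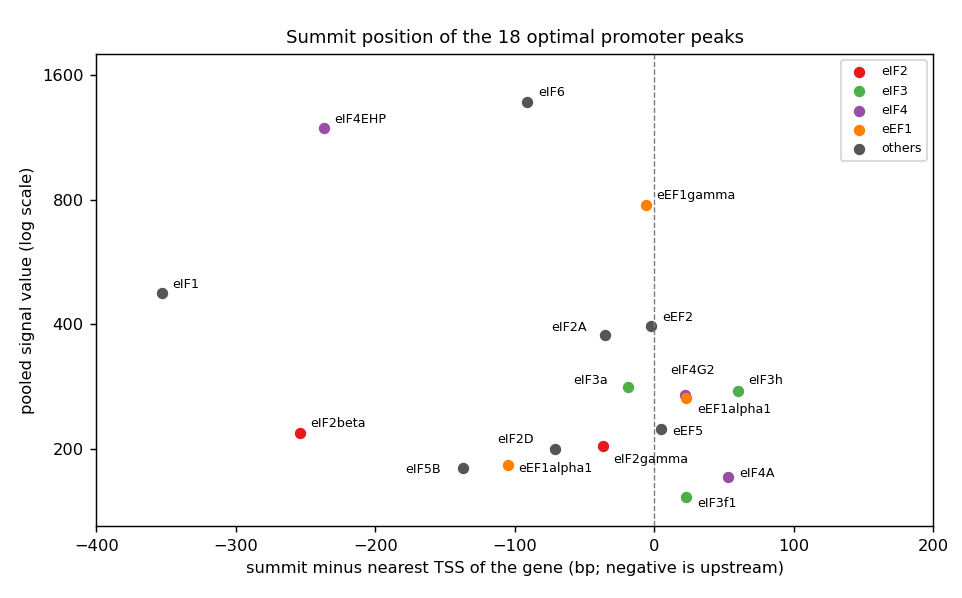
Each point is 1 of the 18 optimal promoter peaks of the eIF and eEF genes (eEF1alpha1 has 2), with the summit's distance from the nearest TSS of the gene in bp on the x axis and the pooled signal value on a log y axis, coloured by complex. Most summits lie within 100 bp of the start, while those of eIF1, eIF2beta and eIF4EHP lie 353, 254 and 237 bp upstream.

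The DRE, the palindrome TATCGATA bound by the housekeeping promoter factor DREF, was frequent in these peaks. It lay within 100 bp of the summit in 7 of the 18 peaks (38.9%), against 148 of the 2135 optimal promoter peaks of all genes (6.93%). Within 50 bp of the summit the count was 4 of the 18, and no share over all optimal promoter peaks is given at this distance. The 7 peaks were at eIF6, eEF1gamma, eIF1, eIF2A, eIF3a, eIF2gamma and eIF3f1. The DRE was also frequent at the start sites of these genes regardless of binding: it lay between 250 bp upstream and 50 bp downstream of 17 of their 77 TSSs (22.1%), against 7.99% of all 19607 TSSs. Start sites of 1 gene can share sequence. Counted per gene over the same windows, 7 of 17 bound members held it (41.2%), against 8 of 35 unbound members (22.9%). Over all protein-coding genes the shares were 16.2% of bound and 8.79% of unbound genes. These 7 bound members include eIF4A, whose DRE is over 100 bp from the summit, and leave out eIF1, whose DRE is over 250 bp upstream of its TSS. A gene with more start sites has more such windows. No difference between bound and unbound members was tested.

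Sequences are shown for 6 of the 7 peaks, to place the DRE in its promoter. Each runs from the DRE to the nearest annotated exon or to 100 bases from the summit, 5′ to 3′ on the gene's strand, from the RefSeq copy of Release 6. For eIF2A, whose DRE lies inside an exon that starts at its more distant TSS, 30 bases are shown. Capitals mark TATCGATA.
eEF1gamma (chr3R:29220066-29220171, plus strand): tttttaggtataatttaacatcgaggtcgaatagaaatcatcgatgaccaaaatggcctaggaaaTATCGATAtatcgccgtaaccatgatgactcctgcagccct
eIF1 (chr3L:3222961-3223088, plus strand): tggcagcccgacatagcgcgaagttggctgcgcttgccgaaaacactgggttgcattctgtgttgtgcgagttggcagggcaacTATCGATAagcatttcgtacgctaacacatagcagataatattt
eIF2A (chr3L:21824865-21824894, plus strand): ttactatcgctTATCGATAcaccgcgtaca
eIF3a (chr3R:4433896-4433964, minus strand): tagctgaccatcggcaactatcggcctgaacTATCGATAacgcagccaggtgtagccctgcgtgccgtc
eIF2gamma (chr3R:15263459-15263551, minus strand): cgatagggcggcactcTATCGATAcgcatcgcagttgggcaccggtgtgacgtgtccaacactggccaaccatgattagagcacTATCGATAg
eIF3f1 (chr3R:4714183-4714259, minus strand): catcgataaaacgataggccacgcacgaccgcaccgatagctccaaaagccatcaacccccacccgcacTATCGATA

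eIF2gamma held 3 copies, with the fourth base of the motif 93, 74 and 6 bp upstream of its TSS on the gene's strand, of which the most distant overlaps the first exon of the neighbouring gene Set and is not shown whole above. The copy at eIF3f1 lay 5 bp upstream of the TSS, directly beside the start. At eIF3a the copy was 35 bp upstream, at eEF1gamma 38 bp and at eIF2A 86 bp. The copy at eIF1 lay 293 bp upstream, between eIF1 and the divergently transcribed RpL28. The distance from summit to DRE ranged from 16 bp at eIF3a to 83 bp at eIF6.

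Of the other promoter elements searched, each was found in at most 3 of the 18 peaks. The M1BP site GGTCACAC, on either strand, was found in 2 of 18 peaks (11.1%), at eIF2A and eEF1alpha1, against 5.62% of all optimal promoter peaks. The cAMP response element TGACGTCA was in none of the 18 peaks and none of the 77 promoters, against 0.609% of peaks and 0.556% of promoters of all genes. Its core TGACG, on either strand, was in 2 peaks (11.1%), at eIF3h and eIF2gamma, against 17.6%. The TATA box sequence TATAAA, on either strand and at any position, was in 3 (16.7%), against 27.7%. The E-box CACGTG was in 1 (5.56%), at eEF2, against 3.51%. TGACGTCA contains TGACG, and both were counted. In the promoter windows, counted per gene, the order differed for TATAAA: it was held by 11 of the 17 bound members (64.7%), against 53.8% of all bound genes. Counted per TSS, it was at 30 of the 77 (39%), against 42.2% of all TSSs. Its position in the window was not used, so these counts are not counts of TATA-box promoters. The E-box was held by 4 of 17 (23.5%), against 7.18%, and the M1BP site by 4 of 17 (23.5%), against 14.1%. The core TGACG was held by 6 of 17 (35.3%), against 38.7%. Of the 35 unbound members 7 held TGACG (20%), against 27.8% of all unbound genes, and 13 held TATAAA (37.1%), against 50.7%. The E-box was held by 1 of them (2.86%), against 4.91%, and the M1BP site by 5 (14.3%), against 7.49%. Genes with more start sites have more windows, and no difference in these shares was tested.

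Genes of the translation machinery often start at a TCT initiator, a pyrimidine-rich start motif, and its core CTTT was searched on the gene's strand within 5 bp of each TSS. It was present at 9 of the 77 TSSs (11.7%), against 6% of all TSSs. By gene, 5 of the 17 bound members held it (29.4%), namely eEF1alpha1, eEF2, eEF5, eIF3f1 and eIF4A, against 2 of the 35 unbound members (5.71%), eIF3i and eIF3m. At the start nearest the summit it was present in 3 of these, eEF1alpha1, eEF2 and eIF3f1. Over all genes the shares were 11.8% of bound and 7.21% of unbound genes. By start site, it was present at 7 of 30 in the bound members (23.3%) and 2 of 47 in the unbound members (4.26%). A gene with more start sites has more places for it. Of the members with 2 or more start sites 10 of 20 were bound, against 7 of 32 with 1. No difference in these shares was tested. Start sites of eEF2, eIF4A and eIF3f1 are shown with 20 bases on each side and CTTT in capitals. The eIF4A start shown lies 178 bp from the optimal summit and is not the one nearest to it, and another eIF4A start with CTTT lies 652 bp away.
eEF2 (chr2L:21682096-21682136, minus strand): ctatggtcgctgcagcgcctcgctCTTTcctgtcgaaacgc
eIF4A (chr2L:5982574-5982614, plus strand): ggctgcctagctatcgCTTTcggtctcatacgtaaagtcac
eIF3f1 (chr3R:4714162-4714202, minus strand): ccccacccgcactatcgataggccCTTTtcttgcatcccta

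The eIF2 trimer was bound at its beta and gamma subunits. eIF2beta (FBgn0004926) had 1 optimal promoter peak, with a signal of 218.7 at rank 1930. Its summit stood 254 bp upstream of the only annotated start. It ranked 2792, 2299 and 1263 in replicates 1, 2 and 3. eIF2gamma had a peak of 202.8 at rank 2264, 37 bp upstream, and it ranked 3387, 2058 and 3039. Both stood in the highest-signal peaks of every replicate. The nearest eIF2gamma start site is also that of Su(var)3-9, which encodes a histone methyltransferase and overlaps eIF2gamma on the same strand, and the TSS of Set, on the other strand, lay 57 bp from the summit. The peak cannot be assigned to one of these genes. eIF2alpha, the subunit phosphorylated under stress, had no optimal peak: its promoter peak stood at rank 8441 of the pooled list and at ranks 10264, 8101 and 10313 in the replicates.

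None of the 5 eIF2B genes had an optimal promoter peak. Pooled-list peaks stood at rank 5202 for eIF2Bepsilon, 7180 for eIF2Bgamma and 18155 for eIF2Bdelta, and eIF2Balpha and eIF2Bbeta had none. The last 2 had promoter peaks in replicates 1 and 2, at ranks 7329 and 8136 for eIF2Balpha and at 18074 and 22367 for eIF2Bbeta. eIF2Bepsilon, the catalytic subunit, varied most: its best promoter peak ranked 1818 in replicate 1, 29519 in replicate 2 and 8172 in replicate 3. The summit minus the TSS was -188, 32 and -191 bp, so the replicate 2 peak was a different one. eIF2Bepsilon was the only eIF2B gene within the first 3915 peaks of any replicate.

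eIF3 was bound at 3 of 16 subunits. The scaffold subunit eIF3a had a signal of 281.3 at rank 1176, with the summit 19 bp upstream, and ranked 1012, 1570 and 1187 in the replicates. The same summit was 51 bp upstream of CG1074, transcribed in the opposite direction. eIF3h had 275.2 at rank 1220 and ranked 627, 3576 and 3944, and the rank in replicate 3 lay just past the limit of 3915. Its summit lay 60 bp downstream of the TSS, in a coding exon. The start of senju, on the opposite strand, was 123 bp from it. eIF3f1 had the lowest signal of the 18 peaks, 153.3 at rank 3852, and ranked 2349, 4314 and 2787. eIF3a was therefore the only eIF3 gene with full replicate support.

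Most remaining eIF3 subunits had weaker promoter peaks. In the pooled list eIF3m stood at rank 4118, eIF3j at 4770, eIF3b at 5183, eIF3c at 6827, eIF3k at 6940, eIF3i at 8684, eIF3d1 at 8689, eIF3l at 13730 and eIF3e at 21317. eIF3j came within the first 3915 peaks in replicates 1 and 3, at ranks 1842 and 3800, with 4212 in replicate 2. eIF3c ranked 1412 in replicate 3, against 11309 and 13084 in replicates 1 and 2. eIF3m ranked 2341 in replicate 3, against 8216 and 5039 in replicates 1 and 2. Each rank is that of the gene's best promoter peak in that replicate, which need not be the same peak. At eIF3c, for example, the summit minus the nearest TSS was -7, 119 and -74 bp in replicates 1, 2 and 3.

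The eIF4 genes ranged from very strong promoter peaks to none. eIF4EHP, a cap-binding protein that represses translation of maternal mRNAs in the embryo, had the second-strongest peak of the 18, with a signal of 1189.3 at rank 45. It ranked 107, 68 and 27 in replicates 1, 2 and 3, high in each. The summit lay 237 bp upstream of its TSS and 139 bp upstream of CG18428 on the opposite strand, so CG18428 had the nearer start. eIF4A, the RNA helicase that unwinds the 5′ end of mRNAs, had 170.9 at rank 3133, and its peak ranked 2776 and 1459 in replicates 1 and 2, against 11380 in replicate 3. Another eIF4A promoter peak, with its summit 92 bp upstream of a TSS, ranked 3052 in replicate 3. The cap-binding protein gene eIF4E1, with 4 TSSs, had 4 pooled-list promoter peaks, the best at rank 6678, and reached rank 3118 in replicate 3. eIF4E6 stood at rank 8755, with rank 3433 in replicate 2, and eIF4H1, which encodes a helicase cofactor, at 12418. The scaffold gene eIF4G1 had no pooled-list promoter peak and 1 replicate peak, at rank 7479 in replicate 3. eIF4B, eIF4E4 and eIF4H2 had none in any list.

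eEF1 was bound at eEF1gamma and eEF1alpha1. eEF1gamma, a subunit of the exchange complex, had 777.4 at rank 147 and its summit 6 bp before the TSS, and ranked 126, 161 and 181. eEF1alpha1, the factor that carries aminoacyl-tRNA to the ribosome, had 2 optimal promoter peaks, at 2 of its 4 start sites. The stronger had 264.9 at rank 1310, 23 bp downstream of a TSS, and ranked 970, 1022 and 2274. The other had 183.1 at rank 2740, 105 bp upstream of the first TSS and 51 bp upstream of ERp60, and ranked 4564, 2342 and 2721. The exchange factor gene eEF1beta stood at rank 9714 of the pooled list. eEF1delta had promoter peaks in replicates 1 and 3 alone, at ranks 13894 and 24181, and eEF1alpha2 had none in any list. eEF1alpha1 thus had a promoter peak in every list, while eEF1alpha2 had 2 pooled-list gene-body peaks and no promoter peak.

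**Figure D3:**
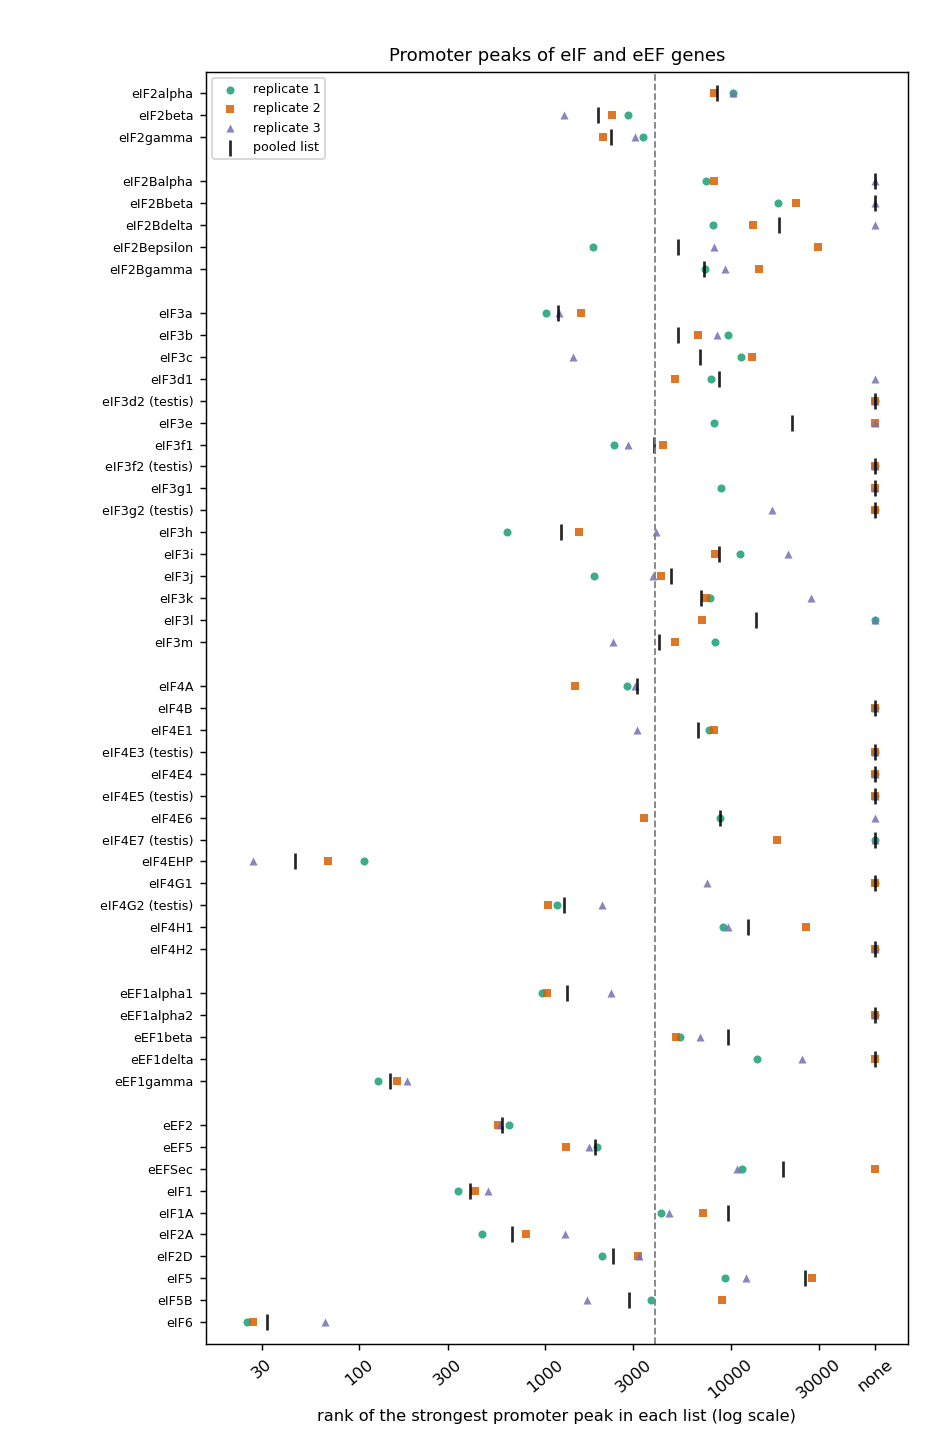
Rows are the 52 genes by complex, and the x axis is the rank of the strongest promoter peak in each whole list on a log scale, with low ranks for strong peaks and "none" where the list has no peak within 500 bp of a TSS. Coloured points are the 3 replicates, black bars the pooled list and the dashed line rank 3915. The 3 replicates lie close together at eEF2 and eEF1gamma, and also at eIF2alpha beyond the line, and far apart at eIF2Bepsilon and eIF3c. At eIF2Bepsilon and eIF3c the strongest peak is not at the same place in every replicate.

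The strongest peak of all was at eIF6, which keeps large ribosomal subunits from joining small ones too early. Its signal was 1379.0 at rank 32, with its summit 91 bp before the TSS (2R, 23850258 to 23850550), and it ranked 25, 27 and 66. The gene and the summit lie within ytr, a gene on the same strand, more than 500 bp from any start site of ytr. eIF1, which guards start codon choice, had 475.5 at rank 394 and ranked 339, 421 and 496. That summit lay 353 bp upstream of eIF1 and 28 bp upstream of the ribosomal protein gene RpL28. eEF2, the translocase, had 396.1 at rank 589 and ranked 645, 557 and 574, with the summit 2 bp from the TSS. All 3 peaks were far inside the first 3915 of every replicate, and eEF2 kept nearly the same rank.

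eIF2A, a factor of non-canonical initiation, had 376.6 at rank 667 and ranked 461, 790 and 1280. Its summit lay 35 bp upstream of the nearest TSS, within a 5′ UTR of the gene. eEF5, formerly named eIF5A, which relieves stalled ribosomes, had 222.9 at rank 1857, 5 bp downstream, and ranked 1918, 1300 and 1730. eIF2D, which acts in reinitiation, had 200.1 at rank 2325, 71 bp upstream, and ranked 2034, 3178 and 3198. All 3 genes had full replicate support. eIF5B, the GTPase that joins the ribosomal subunits, had 179.8 at rank 2834. Its summit lay 137 bp upstream of the nearest TSS, within a 5′ UTR of the gene. The peak ranked 5566, 8954 and 1681, so replicate 3 alone supported it. The remaining factors in this group were weak: eIF1A stood at rank 9637 of the pooled list, the selenocysteine factor gene eEFSec at 19105 and eIF5, the GTPase activator of eIF2, at 25130.

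General genes and testis paralogs were set side by side. An optimal promoter peak was present at 16 of 45 general genes (35.6%, Wilson 95% interval 23.2% to 50.2%) and at 1 of 7 testis paralogs (14.3%, interval 2.57% to 51.3%). These intervals overlap. Over all protein-coding genes the share was 18.7%, inside the interval of the testis paralogs and below that of the general genes. In the whole pooled list, which runs into the background, a promoter peak was present at 37 of 52 genes (71.2%), against 56.8% of all genes. Of these, 36 of 45 were general genes (80%, interval 66.2% to 89.1%) and 1 of 7 was a testis paralog (14.3%), and these intervals do not overlap. With eIF4E4 and eIF4E6 moved to the testis paralogs, the counts were 35 of 43 general genes (81.4%) and 2 of 9 testis paralogs (22.2%). The whole replicate lists gave 40, 38 and 35 of the 52 genes in replicates 1, 2 and 3, against 55.8%, 54.9% and 55.7% of all genes. They held 39, 36 and 33 general genes and 1, 2 and 2 testis paralogs. Intervals cover the counting of genes only, and the difference between the classes was not tested.

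The only testis paralog with a repeated promoter peak was eIF4G2, a scaffold needed for male meiosis. Its peak had 269.1 at rank 1270, 22 bp downstream of the TSS, and ranked 1170, 1046 and 2019, while its general partner eIF4G1 lacked a pooled-list peak. Both annotated start sites of eIF4G2 are also start sites of CG33111 on the same strand, so the peak cannot be assigned to eIF4G2 rather than CG33111. Among the cap-binding paralogs, eIF4E3 and eIF4E5 had no promoter peak in any list and eIF4E7 had 1, at rank 17855 in replicate 2, against pooled rank 6678 for the general eIF4E1. eIF3d2 and eIF3f2 had none in any list, against pooled ranks 8689 for eIF3d1 and 3852 for eIF3f1. eIF3g2 had 1, at rank 16718 in replicate 3, and its general partner eIF3g1 had 1, at rank 8913 in replicate 1. In the pooled list eIF4G2 thus had a promoter peak, shared with CG33111, and eIF4G1 had none, neither gene had one for eIF3g, and the general gene alone had one for eIF3d, eIF3f and eIF4E.

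No promoter peak was listed for 8 of the 52 genes (15.4%) in the optimal, pooled or replicate lists, against 30.2% of all genes. They were 4 of the 45 general genes (8.89%), eEF1alpha2, eIF4B, eIF4E4 and eIF4H2, and 4 of the 7 testis paralogs (57.1%), eIF3d2, eIF3f2, eIF4E3 and eIF4E5. None of the 7 testis paralogs held a DRE, an M1BP site or a TCT core at its promoters, against 8.79%, 7.49% and 7.21% of all genes without an optimal promoter peak. Of all genes with such a peak, as eIF4G2 has, 16.2%, 14.1% and 11.8% held them. With 7 genes a count of 0 allows a share of up to 35.4% (Wilson 95% upper bound), so no lower share is shown. The sequence TATAAA, at any position in the window, was found at 3 of the 7 (42.9%), eIF3g2, eIF4E5 and eIF4E7. The shares were 50.7% of all genes without an optimal promoter peak and 53.8% with one. An E-box was found at eIF3f2 (14.3%), against 4.91% and 7.18%. With eIF4E4 and eIF4E6 counted as testis paralogs, a DRE was held by 1 of 9, eIF4E6.

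Gene-body peaks were few. A gene-body peak had its summit inside the gene and over 500 bp from every TSS of that gene. Optimal gene-body peaks were found in 3 of the 52 genes (5.77%), against 6.76% of all genes, and those with a peak supported by all 3 replicates numbered 2 (3.85%), against 4.08%. In the pooled list 14 of 52 genes had one (26.9%), against 31.8%. The factor genes thus stood near the share of all genes. Their median length was 1955 bp, against 2166 bp for all genes.

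The 5 optimal gene-body peaks lay in introns of long genes. eIF5B, with 32320 bp, had 1 of signal 285.6 at rank 1139, stronger than its promoter peak and 27717 bp downstream of the nearest TSS (3L, 3432781 to 3432927). It ranked 3737, 1075 and 838 and had full support. The other, of 161.4 at rank 3523, ranked 4340 and 2031 in replicates 1 and 3 and was missing from replicate 2. eIF4EHP, with 45884 bp, had 1 of 246.1 at rank 1515, ranked 2216, 1436 and 1413, whose summit lay 196 bp downstream of a start site of Syx1A, which encodes the synaptic protein syntaxin and overlaps eIF4EHP on the same strand. The other, of 194.1 at rank 2457, lay 9772 bp from the TSS and ranked 2465, 2721 and 2229. eIF4G2 had 1 of 155.7 at rank 3744, inside CG33111 and CG34355 as well, which ranked 2444 and 3216 in replicates 1 and 3 and was missing from replicate 2. Of the 60 pooled-list gene-body peaks of the factor genes, eIF5B held 26 and eIF4EHP 16.

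**Figure D4:**
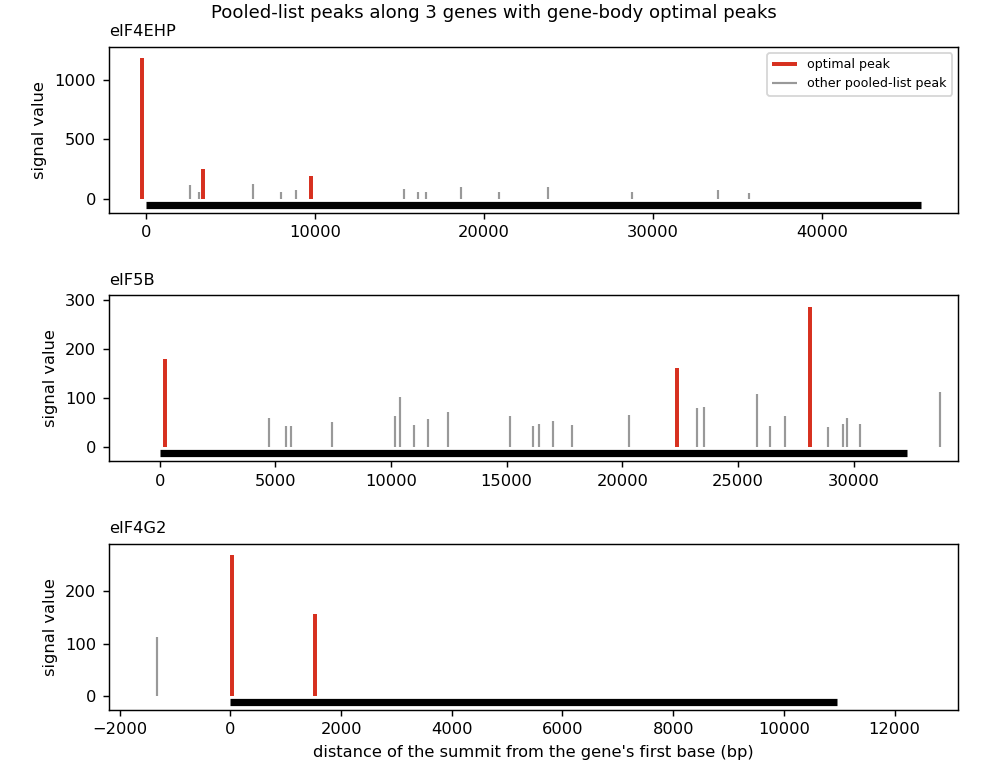
Vertical lines are pooled-list peaks at eIF4EHP, eIF5B and eIF4G2, placed by the summit's distance in bp from the first base of the gene (black bar), with the signal value as height and optimal peaks in red. eIF4EHP has its highest peak upstream of the gene, while in eIF5B the highest lies near the far end of the gene.

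Other genes of translation control were counted in the same way. They were listed by hand with earlier results of these data known, so no conclusion is drawn from their share. Of 30 listed genes that are not eIF or eEF genes by name, 12 had an optimal promoter peak (40%, Wilson 95% interval 24.6% to 57.7%), against 18.7% of all genes. The strongest was at larp, which binds pyrimidine-rich mRNA starts, with 1177.5 at rank 48 and ranks of 70, 49 and 46 in the replicates. RACK1, a protein of the small ribosomal subunit, had 439.3 at rank 473. Thor, which encodes the eIF4E-binding repressor 4E-BP, had 426.8 at rank 506 and ranked 376, 482 and 1623, and Lk6, the eIF4E kinase gene, had 379.7 at rank 653. PEK, an eIF2alpha kinase gene, was just within the list at rank 3889. Its best promoter peak ranked 5232, 4151 and 4309 in the replicates, beyond the first 3915 peaks of each. The other eIF2alpha kinase gene, Gcn2, stood at pooled rank 6540. The remaining bound genes were Dph1, bel, S6k, Dph2, NAT1, Unr and eRF3. Of these, Dph2 and eRF3 ranked 5952 and 6191 in replicate 2, beyond its first 3915 peaks. Support by summit distance in each replicate is not given for the 30 listed genes.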

How the data were processed

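ChIP-seq peak lists of 3 biological replicates were used, grouped by the antibody label. The companion text deposited with the lists states that the authors called peaks in each replicate, and in all 3 together, against 1 control alignment on assembly dm6, and kept as optimal those that passed an IDR threshold; aligner, peak caller and versions are not given in the sources used here. The deposited signal value of each peak is on the caller's own scale and was used only within a list. The optimal peaks are the top 3915 of the pooled list by signal, so both lists share their ranks. The deposited −log10 q-value was used for 1 alternative (q under 0.05).

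Gene models with 19607 TSSs came from Ensembl release 115. Bases were read from RefSeq's Release 6 genome. All peaks lay within the chromosome lengths. Counting used Python 3.11.15, numpy 2.4.6, pandas 2.3.3 and scipy 1.17.1, and the peak assignment was tested on simulated data. Wilson intervals (95%) cover counting error only. Every member is accounted for; those with an optimal peak, and testis paralogs with their partners, are named with values. Of the 30 other translation genes, 2 were matched by synonym. The members and lists were chosen with earlier results of these data known.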

Additional observations from a re-analysis of the deposited data

How the results depend on the processing

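Over 10 results and 64 alternatives, 57 values stayed within 1.5 times the reported count. The number of factor genes with an optimal promoter peak ranged from 12 to 19. Among the 1957 optimal peaks of highest signal, 12 factor genes had a promoter peak (23.1%), against 1370 of all genes (9.82%), a list with fewer peaks. Leaving out each replicate, which also asks for support by both other replicates, gave 13 to 15 factor genes, against 1554 to 1691 of all genes (11.1% to 12.1%). With replicate lists read to 1957 peaks, 8 factor genes had full support. Within 50 bp of the summit, 4 peaks held a DRE, with no share over all genes' peaks given at that distance. Counting each peak for the nearest gene only, an alternative added after the values were seen, left 15 factor genes (28.8%), against 14.5% of all genes. Among testis paralogs the count with an optimal promoter peak was 1 under each alternative run. Adding eIF4E4 and eIF4E6 to them gave 2 with a pooled-list promoter peak, an alternative also added after the values were seen. Depth is unknown, so a gene with no peak is one outside a list of fixed length. No paired analysis was possible because there is 1 group of samples.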
